A study of Mus musculus with 20 samples.

Results

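The glucose and monocarboxylate transporters measured here are 8 genes, taken by symbol from 14700 genes listed in any of the 4 deposited tables. They are Slc2a1, Slc2a3, Slc2a6, Slc2a8 and Slc2a13 of the glucose transporter (GLUT) family and Slc16a1, Slc16a3 and Slc16a7 of the monocarboxylate transporter (MCT) family. 7 of the 8 were listed in every table. Slc16a3 had no row in the table that compares genotypes in normoxia, so that comparison covers 7 of 8. The rule uses symbols and no measured values, though it was written with earlier results of these data known.

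RNA sequencing was done on primary cortical neurons taken from mouse embryos at day 15 and kept in culture for 7 days. For the last 12 h the medium was replaced. Normoxic cultures (N) received glucose at 25 mM and sodium pyruvate at 0.2 mM and went back to the incubator, and cultures under oxygen and glucose deprivation (OGD), a culture model of ischemia, had 1% oxygen and neither supplement. OGD therefore differed from N in oxygen, glucose and pyruvate together, and their effects cannot be told apart. The genotypes were wild type (WT) and a knockout (KO) that removes ciRS-7, a circular RNA listed as Cdr1as. The strain label C57BL/6N-Cdr1asem1Nikr stood on all 20 libraries, WT included. There were 4 groups of 5 libraries, written N_WT and N_KO for normoxia, OGD_WT and OGD_KO for deprivation. N and OGD libraries of the same genotype and number (here called a culture) carried the same batch label. These labels were 1, 3.3, 3.2, 3.3 and 3.1 for WT cultures 1 to 5, and 1, 3.1, 2, 3.1 and 3.3 for KO cultures 1 to 5. Nothing states whether the numbers are separate animals or dissections, so the p-values measure the spread between these libraries, which may in part be technical. Limma p-values, SEs and intervals also draw on other genes, because each gene's variance is pulled towards a trend over all genes.

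Depth, as reads recovered from the deposited log2 CPM values, ran from 7071506 to 16658617 reads per library. Levels are given as CPM, the recovered reads per 1000000 reads on a scale common to the 20 libraries. The targeted gene separated the labelled genotypes: Cdr1as was at 49.3 to 119.5 CPM in WT libraries and at 0.143 to 1.47 in KO libraries. All 10 neuron markers were listed, with summed levels of 4482 to 5845 CPM in N_WT. Transcripts of other cells were present too. 9 of 10 astrocyte markers were listed, and 0 of 8 microglia markers and 0 of 6 erythroid markers. All 8 progenitor and proliferation markers were listed, with summed levels of 572 to 753 CPM in N_WT. Of 9 oligodendrocyte lineage markers 7 were listed, at 264 to 328 CPM. Of 10 endothelial markers 2 were listed (Slco1c1, which astrocytes also express, and Kdr), while Cldn5 and Pecam1 had no row.

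GLUT proteins let glucose and other sugars cross membranes down their gradient, and MCT proteins carry lactate, pyruvate and ketone bodies together with a proton. In brain, the Slc2a1 product GLUT1 is known from the blood-brain barrier and glia, and the Slc2a3 product GLUT3 is the high-affinity glucose transporter of neurons. The Slc16a7 product MCT2 is the high-affinity neuronal lactate carrier, Slc16a1 encodes the widespread MCT1, and Slc16a3 encodes MCT4, known from lactate-exporting, glycolytic cells. Slc2a1 and Slc16a3 are textbook targets of the hypoxia-inducible factor HIF-1, which binds a short core sequence, the hypoxia response element.

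RefSeq promoter windows (build GRCm38.p6, 250 bases before to 50 bases after the annotated start) were found for 6 of the 8 members: Slc2a1, Slc2a6, Slc2a8, Slc2a13, Slc16a1 and Slc16a3. Each window was searched on both strands for the element's core in its forms ACGTG and GCGTG. 3 windows are shown: those of Slc2a1 and Slc16a3, whose transcripts rose most under OGD, and that of Slc2a13, which fell. They lie at chr4:119108495-119108794 on the plus strand, chr11:120948817-120949116 on the plus strand and chr15:91573212-91573511 on the minus strand, in that order. Sequences run 5′ to 3′ along the gene's strand, and capitals mark a match on either strand. A reverse-strand match therefore reads as its reverse complement, CACGC for GCGTG.
Slc2a1: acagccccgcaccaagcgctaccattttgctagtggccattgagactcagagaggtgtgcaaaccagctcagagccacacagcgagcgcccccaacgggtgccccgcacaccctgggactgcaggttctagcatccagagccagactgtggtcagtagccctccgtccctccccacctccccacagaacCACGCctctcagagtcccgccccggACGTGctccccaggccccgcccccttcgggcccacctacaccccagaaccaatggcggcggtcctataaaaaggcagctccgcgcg
Slc16a3: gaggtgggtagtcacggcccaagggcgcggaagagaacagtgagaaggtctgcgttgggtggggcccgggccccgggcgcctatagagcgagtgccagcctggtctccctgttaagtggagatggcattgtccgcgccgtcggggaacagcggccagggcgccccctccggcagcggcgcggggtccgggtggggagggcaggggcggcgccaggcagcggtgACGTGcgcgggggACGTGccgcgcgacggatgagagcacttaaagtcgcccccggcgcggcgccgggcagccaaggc
Slc2a13: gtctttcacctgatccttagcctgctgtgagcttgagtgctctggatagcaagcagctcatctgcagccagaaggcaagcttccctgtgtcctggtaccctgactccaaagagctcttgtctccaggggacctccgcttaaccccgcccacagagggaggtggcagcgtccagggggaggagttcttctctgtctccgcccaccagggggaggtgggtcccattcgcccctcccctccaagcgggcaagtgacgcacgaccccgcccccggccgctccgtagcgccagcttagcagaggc

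The Slc2a1 window held 2 matches, GCGTG on the reverse strand at position -61 and ACGTG on the forward strand at -36, counted from the start site. The Slc16a3 window held 2 forward ACGTG matches, at -27 and -14. The Slc2a13 window held 0. Among the other members, Slc16a1 had 5 matches, of which the pair at -200 and -199 overlapped as a palindrome, Slc2a6 had 4 (all GCGTG) and Slc2a8 had 1. Such short matches are common: 43.8% of 32851 RefSeq windows of this length held either form, 19.6% held ACGTG and 20.6% held 2 or more matches. Slc2a6, with 4 matches, was called lower under OGD in WT and was not called in KO. A match is a description of the letters only.

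**Figure D1:**
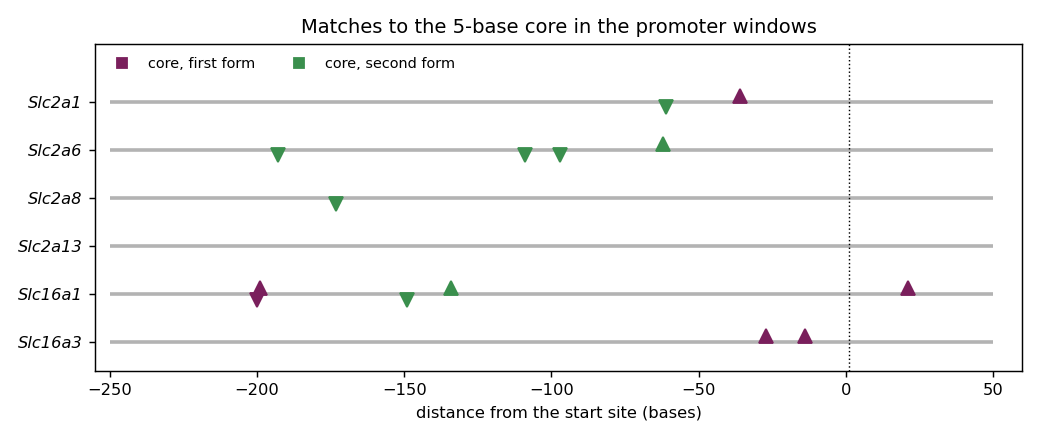
Positions of core matches in the promoter windows of 6 transporters. The x axis is the distance from the annotated start site in bases, grey lines are the 300-base windows, upward triangles are forward and downward triangles reverse matches, and colour gives the form (first, the A form; second, the G form). Slc2a13 has 0 matches and Slc16a1 has 5.

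The first question was how oxygen and glucose deprivation moved the transporters in WT neurons. Slc2a1 and Slc16a3 rose in every culture, Slc16a7, Slc2a6 and Slc2a13 fell, Slc16a1 rose at the edge of the threshold, and Slc2a3 and Slc2a8 did not pass the test. That is 3 of 8 members higher and 3 of 8 lower by limma at a Benjamini-Hochberg adjusted p under 0.05. OGD moved much of the transcriptome in WT: 44.3% of 14235 genes were called, 21.6% higher and 22.8% lower. Groups of 5 did not overlap for 26.9% of genes and for 4 of the 8 members. In KO cultures 2 of 8 members were called higher and 2 of 8 lower, where 40.9% of 14375 genes were called, 21% higher and 19.9% lower. Groups did not overlap for 25.8% of genes and again for 4 of 8 members. The median log2 fold change of the 8 members was 0.18 in WT and 0.27 in KO, beside -0.028 and 0.0027 over all genes tested. Read against a background of this size, a count of members says little, and the transporters are described singly.

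**Figure D2:**
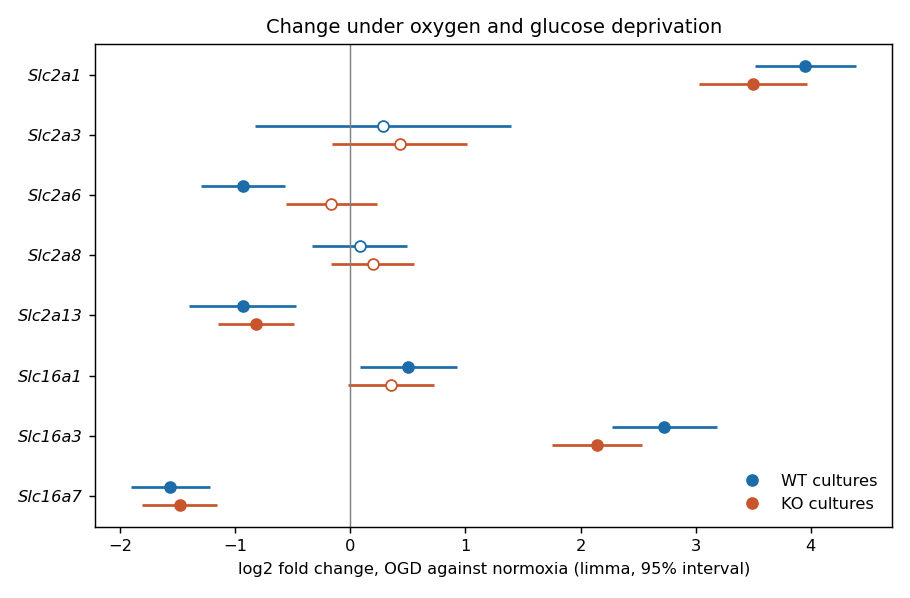
Log2 fold change of the 8 transporters, OGD against normoxia, in WT (blue) and KO (orange) cultures. Points are limma estimates from 5 against 5 libraries, bars are 95% intervals and filled points passed the adjusted threshold. Slc2a1 lies at 3.95 in WT and 3.50 in KO, and Slc16a7 at -1.56 and -1.49.

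Slc2a1 (chr4:119108711-119137983, plus strand, 12 merged exons in GENCODE M21), the glucose transporter of barrier and glial cells, rose in all 10 cultures. N_WT cultures 1 to 5 had 5.00, 3.60, 4.90, 4.83 and 6.38 CPM, and OGD_WT cultures had 78.95, 127.6, 86.5, 99.2 and 43.0 CPM. Every OGD_WT library lay above every N_WT library, and culture 5 was the lowest of the OGD group and the highest of the normoxic one. The mean went from 4.94 ± 0.987 to 87.1 ± 30.8 CPM (SD, n = 5), a ratio of 17.6. The log2 fold change was 3.95 (SE 0.21, limma adjusted p 1.54e-11). In KO, N_KO cultures 1 to 5 had 6.22, 10.9, 5.01, 9.77 and 3.76 CPM and OGD_KO cultures 86.5, 59.2, 90.4, 86.5 and 74.5 CPM. Again the groups did not overlap. The mean ratio was 11.1 and the log2 fold change 3.50 (SE 0.22, limma adjusted p 7.60e-09). Up to 105 bases of its exons overlap those of Gm12868 on the opposite strand, and the strand setting of the counting is not stated.

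Slc2a3 (chr6:122727809-122801640, minus strand), the neuronal glucose transporter, did not pass the test in either genotype, and its libraries were split. N_WT cultures 1 to 5 had 55.2, 35.7, 59.4, 55.2 and 121.6 CPM, and OGD_WT cultures had 92.1, 189.3, 92.1, 171.3 and 7.77 CPM. Cultures 1 to 4 were higher under OGD, and culture 5 went from the highest normoxic level to the lowest of all 20 libraries. The log2 fold change was 0.28 (95% interval -0.83 to 1.40, limma adjusted p 0.699). This interval understates the gene's own spread: its SE was 0.54, and 0.68 with the replicate block. The SD of the log2 values was 1.84 in OGD_WT and 0.63 in N_WT. Without culture 5 the log2 fold change was 1.32 (limma adjusted p 8.25e-12). It was -0.24 without culture 2 (limma adjusted p 0.807) and -0.052 without culture 4 (limma adjusted p 0.962), so its sign depends on the culture left out. The small p without culture 5 leans on the variance trend over all genes and does not measure this gene's own spread. Without culture 5, 7 of 8 members were called in WT, where 6993 of 14235 genes were called. N_KO cultures had 62.4, 111.1, 50.5, 91.2 and 23.7 CPM and OGD_KO cultures 84.4, 78.4, 91.0, 83.1 and 65.2 CPM. The OGD_KO libraries lay close together, within the wide normoxic range, and the log2 fold change was 0.43 (95% interval -0.16 to 1.02, limma adjusted p 0.236). Of the 50-base words of Slc2a3 exons, 1.24% occur in another gene, so few of its reads could be shared with a near copy.

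**Figure D3:**
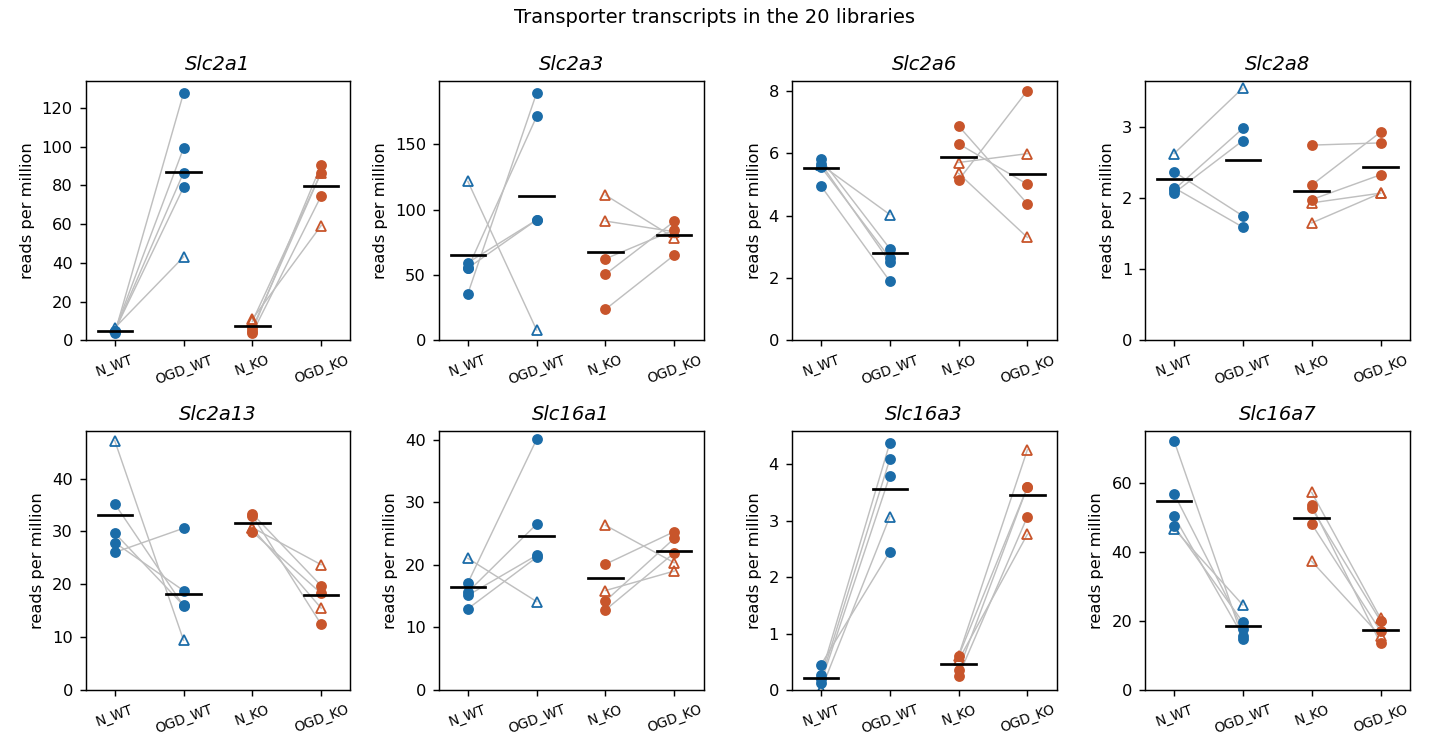
CPM (y axis, starting at 0) of each transporter in the 20 libraries, by group. Grey lines join the normoxic and OGD library of a culture, black bars are group means (n = 5), and open triangles are the cultures of batch 3.1. Slc2a1 and Slc16a3 separate by condition in both genotypes, and 1 OGD_WT library of Slc2a3 lies at 7.77.

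The culture that stood apart for Slc2a3 was 1 of 3 with the batch label 3.1, namely WT culture 5 and KO cultures 2 and 4. In these 3 cultures the change of Slc2a1 under OGD (log2, OGD minus N) ran from 2.42 to 3.13, below the 3.76 to 5.08 of the other 7 cultures. The change of Slc2a3 ran from -3.94 to -0.13 in batch 3.1 and from 0.44 to 2.40 elsewhere. Slc16a1 changed by -0.57 to 0.26 in batch 3.1 and by 0.33 to 1.22 elsewhere. For Slc16a3 (2.07 to 4.26 against 2.09 to 3.73) and Slc16a7 (-1.46 to -0.92 against -2.26 to -1.26) the ranges overlapped. 5 hypoxia-responsive genes that are no members (Vegfa, Egln3, Bnip3, Ankrd37 and Pdk1) moved with this split. Their mean level rose by 0.73 to 1.33 log2 units in batch 3.1 and by 2.09 to 3.38 in the other 7 cultures. In normoxia that mean was 3.46 to 3.66 in batch 3.1 and 2.21 to 2.96 elsewhere. The part of batch in the transporters' values was not tested. This split was seen in the data and is given without a p-value. The groups differ in it: batch 3.1 holds 1 of 5 WT and 2 of 5 KO cultures.

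**Figure D4:**
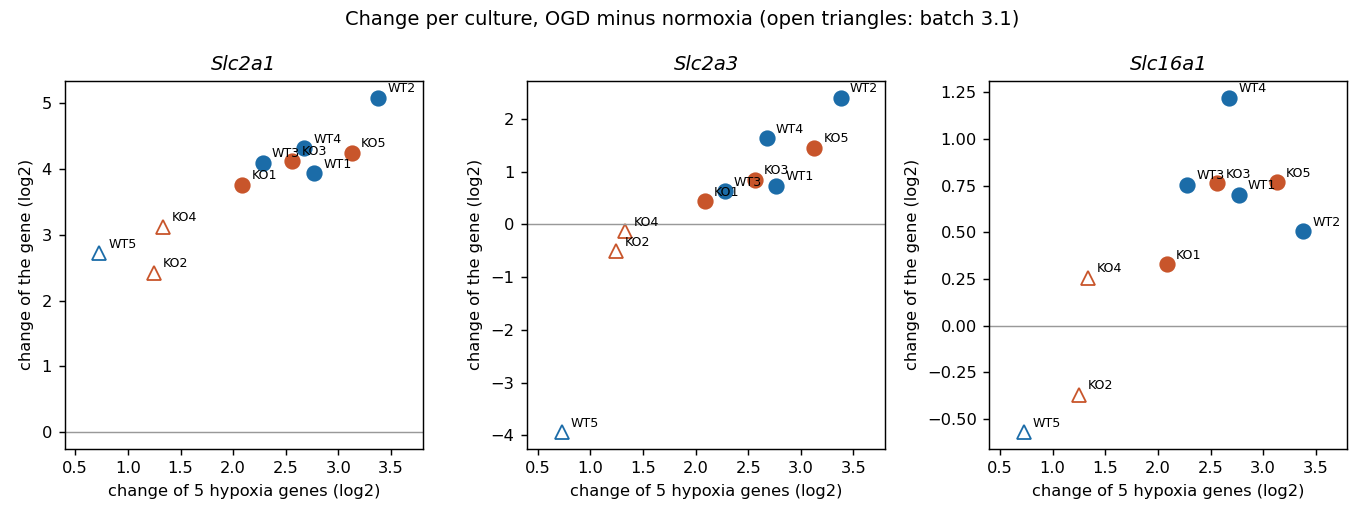
Change of Slc2a1, Slc2a3 and Slc16a1 under OGD in each culture (y axis, log2, OGD minus normoxia) against the change of the mean of 5 hypoxia-responsive genes in the same culture (x axis, log2). Points are the 10 cultures, blue for WT and orange for KO, and the open triangles of batch 3.1 sit at the left, between 0.73 and 1.33.

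With the 3 cultures of batch 3.1 left out, a setting chosen after seeing the data, 7 of 8 members were called in WT and 5 of 8 in KO. At this setting 6993 of 14235 genes were called in WT and 5857 of 14375 in KO. The WT fit is the same as the one without culture 5 given above. Slc2a1 then had a log2 fold change of 4.27 in WT and 3.99 in KO. Slc2a3 had 1.32 in WT and 0.91 in KO (limma adjusted p 0.0547), and Slc16a1 had 0.77 (limma adjusted p 5.33e-05) and 0.62 (limma adjusted p 0.0242). The KO values then rest on 3 cultures. The WT p-values at this setting lean on the variance trend over all genes, so their small size does not measure the spread between these cultures.

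Slc2a6, Slc2a8 and Slc2a13 encode GLUT members found mainly on internal membranes, the last being the proton-coupled inositol transporter. Slc2a13 (chr15:91267696-91573261, minus strand) fell in both genotypes. N_WT cultures 1 to 5 had 29.7, 27.9, 35.2, 26.0 and 47.2 CPM and OGD_WT cultures 16.0, 18.8, 15.9, 30.6 and 9.41 CPM. OGD was lower in 4 of 5 WT cultures, and culture 4 was the exception. The log2 fold change was -0.94 (SE 0.22, limma adjusted p 0.00179), and -0.60 without culture 5 (limma adjusted p 0.00144). The p without culture 5 comes from the fit described for Slc2a3 and shares its limit. N_KO cultures had 33.4, 30.6, 29.9, 30.7 and 33.0 CPM and OGD_KO cultures 19.7, 15.5, 18.3, 23.7 and 12.4 CPM, with no overlap. The log2 fold change in KO was -0.82 (SE 0.16, limma adjusted p 0.000451).

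Slc2a6 (chr2:27021363-27027998, minus strand) fell in WT. N_WT cultures had 5.66, 4.95, 5.56, 5.82 and 5.63 CPM and OGD_WT cultures 2.50, 1.90, 2.64, 2.94 and 4.03 CPM. All 5 OGD_WT libraries lay below all 5 N_WT libraries, and the log2 fold change was -0.93 (SE 0.18, limma adjusted p 0.000211). In KO the levels were 6.30, 5.35, 6.87, 5.70 and 5.14 CPM in normoxia and 5.00, 3.30, 4.38, 5.98 and 8.01 CPM under OGD. The OGD_KO libraries spread to both sides of the normoxic ones, with a log2 fold change of -0.17 (95% interval -0.56 to 0.23, limma adjusted p 0.502). These levels rest on 21 to 86 reads per library. Slc2a8 (chr2:32972990-32982083, minus strand) was low throughout, at 2.07 to 2.63 CPM in N_WT, 1.59 to 3.55 in OGD_WT, 1.65 to 2.75 in N_KO and 2.07 to 2.93 in OGD_KO. Its log2 fold change was 0.08 (95% interval -0.33 to 0.49) in WT and 0.19 (95% interval -0.17 to 0.55) in KO.

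The monocarboxylate transporters moved in different directions. Slc16a3 (chr11:120948480-120960868, plus strand), the carrier of glycolytic cells, was close to its detection limit in normoxia and rose under OGD. N_WT cultures 1 to 5 had 0.263, 0.129, 0.188, 0.447 and 0 CPM, from 0 to 5 reads, and OGD_WT cultures had 4.38, 3.796, 4.09, 2.45 and 3.07 CPM, from 20 to 70 reads. N_KO cultures had 0.252, 0.529, 0.349, 0.611 and 0.597 CPM, from 3 to 10 reads, and OGD_KO cultures 3.07, 2.76, 3.60, 4.26 and 3.60 CPM. Every OGD library lay above every normoxic library of its genotype. The mean rose from 0.206 ± 0.166 to 3.56 ± 0.786 CPM in WT and from 0.468 ± 0.159 to 3.46 ± 0.573 CPM in KO (SD, n = 5), ratios of 17.3 and 7.39. On the log2 CPM scale, whose prior count understates the change of low genes, the fold changes were 2.73 (SE 0.22, limma adjusted p 5.69e-09) and 2.14 (SE 0.19, limma adjusted p 1.18e-07). With a prior count of 0.5 the fold change in WT was 4.196, above the 4.049 of Slc2a1 at that setting, so the order of these 2 genes rests on the prior count.

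Slc16a7 (chr10:125219270-125389465, minus strand), the neuronal lactate carrier, fell in all 10 cultures. N_WT cultures 1 to 5 had 50.4, 47.6, 57.0, 72.4 and 46.8 CPM and OGD_WT cultures 15.6, 19.7, 17.8, 14.9 and 24.7 CPM. N_KO cultures had 52.8, 37.4, 48.2, 57.4 and 53.6 CPM and OGD_KO cultures 20.1, 15.6, 17.2, 20.8 and 13.6 CPM. The groups did not overlap in either genotype, and the mean under OGD was 0.338 times the normoxic mean in WT and 0.350 times in KO. The log2 fold changes were -1.56 (SE 0.16, limma adjusted p 2.44e-07) and -1.49 (SE 0.16, limma adjusted p 1.08e-06). In bulk RNA, fewer cells of a type and less RNA per cell cannot be told apart. Neuron markers moved the same way: 6 of 10 were called lower in each genotype, and their summed level went from 4482 to 5845 CPM in N_WT to 2876 to 5535 in OGD_WT, and from 5051 to 5269 in N_KO to 3061 to 4389 in OGD_KO. The median log2 fold change of the 10 markers was -0.52 in WT and -0.59 in KO. Their part in the fall of Slc16a7 was not tested. Up to 179 bases of Slc16a7 exons overlap those of Gm47862 on the opposite strand.

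Slc16a1 (chr3:104638668-104658462, plus strand), the widespread carrier, had 13.0, 15.1, 15.6, 17.1 and 21.03 CPM in N_WT cultures 1 to 5 and 21.2, 21.5, 26.5, 40.04 and 14.1 CPM in OGD_WT. 4 of 5 cultures were higher under OGD, and culture 5 was lower. The log2 fold change of 0.50 (SE 0.20) had a limma adjusted p of 0.0493, just under the threshold. With the replicate block the limma adjusted p was 0.0882, and the call was also lost without each of cultures 1 to 4. The log2 fold change was 0.33 without culture 4 and 0.77 without culture 5. N_KO cultures had 20.1, 26.3, 14.2, 15.9 and 12.8 CPM and OGD_KO cultures 25.3, 20.3, 24.2, 18.99 and 21.9 CPM, a log2 fold change of 0.35 (95% interval -0.02 to 0.73, limma adjusted p 0.118). It was called in KO on the values as deposited and without culture 2 (log2 fold change 0.53).

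Marker transcripts of other cell types moved under OGD too. Of 9 listed astrocyte markers 6 were called higher and 1 lower in WT and 5 higher in KO. Their summed level went from 1101 to 1373 CPM in N_WT to 1804 to 2240 in OGD_WT, and from 871.9 to 1540 in N_KO to 1477 to 2294 in OGD_KO. Their median log2 fold changes were 0.73 in WT and 0.68 in KO. The 2 listed endothelial markers were called higher in both genotypes, with summed levels of 8.68 to 13.6 CPM in N_WT, 17.6 to 23.3 in OGD_WT, 7.63 to 13.3 in N_KO and 15.7 to 18.1 in OGD_KO. Of 8 progenitor and proliferation markers 4 were called higher and 1 lower in WT, and 4 higher in KO. Their summed level went from 572 to 753 CPM in N_WT to 957 to 1544 in OGD_WT. In KO it went from 547 to 847 CPM in N_KO to 1125 to 1514 in OGD_KO. Of 7 listed oligodendrocyte lineage markers 1 was called higher and 2 lower in WT, and 3 higher in KO. The part of these cells in the rise of Slc2a1 and Slc16a3, with log2 fold changes of 3.95 and 2.73 in WT, was not tested.

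Per kilobase of merged exon (CPM per kb), the order of the transporters changed with OGD. The length joins all annotated exons of a gene, from 11839 bases for Slc16a7 to 3209 for Slc2a8. Which transcripts of a gene were expressed was not determined. Orders between genes, and the shares below, therefore depend on the length used. In N_WT Slc2a3 stood highest at 9.03 ± 4.52, followed by Slc16a7 at 4.63 ± 0.895, Slc2a13 at 3.97 ± 1.02 and Slc16a1 at 3.70 ± 0.677 (SD, n = 5). Neighbours among these 4 overlapped in range. Compared within each library, Slc2a3 was above Slc16a7 in 5 of 5, Slc16a7 above Slc2a13 in 4 and Slc2a13 above Slc16a1 in 3. Slc2a6 at 1.72 and Slc2a1 at 1.41 overlapped each other, and Slc2a8 at 0.707 and Slc16a3 at 0.0387 came last, each below every library of the gene before it. In OGD_WT Slc2a1 was first at 24.8 ± 8.79 and Slc2a3 next at 15.3 ± 10.03, with overlapping ranges. Then came Slc16a1 at 5.57 ± 2.18, Slc2a13 at 2.17 and Slc16a7 at 1.57. Within libraries Slc2a1 was above Slc2a3 in 5 of 5, and Slc2a3 above Slc16a1 in 4. Slc2a6 at 0.873, Slc2a8 at 0.791 and Slc16a3 at 0.669 were last and overlapped.

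In N_KO Slc2a3 was at 9.36 ± 4.73, Slc16a7 at 4.21, Slc16a1 at 4.03 and Slc2a13 at 3.77, each overlapping the next. Within libraries each was above the next in 4, 3 and 2 of 5. Slc2a1 at 2.03 and Slc2a6 at 1.83 overlapped, above Slc2a8 at 0.654 and Slc16a3 at 0.0879. In OGD_KO the top 3 were separate in every library: Slc2a1 at 22.7 ± 3.65, Slc2a3 at 11.1 ± 1.33 and Slc16a1 at 5.00 ± 0.593. Slc2a13 at 2.14, Slc2a6 at 1.66 and Slc16a7 at 1.47 overlapped in turn, and so did Slc2a8 at 0.759 and Slc16a3 at 0.650.

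**Figure D5:**
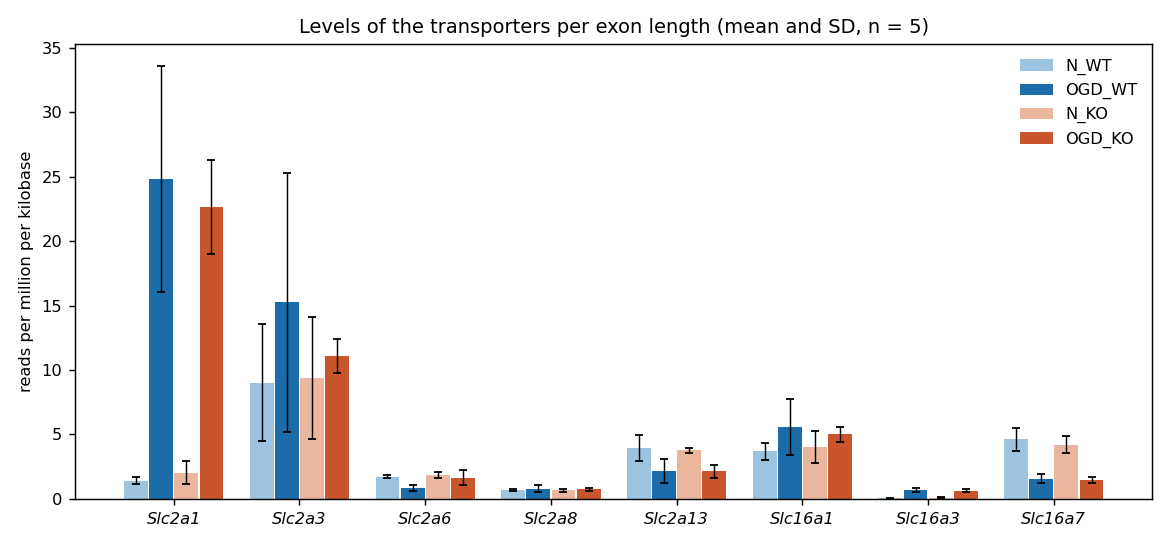
Level of each transporter in CPM per kilobase of merged exon (y axis, starting at 0), as bars of the group mean with SD (n = 5). Slc2a1 goes from 1.41 in N_WT to 24.8 in OGD_WT, and Slc16a7 from 4.63 to 1.57.

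As a share of the pair on this per-length scale, Slc2a1 made up 14.5% ± 2.83 of Slc2a1 and Slc2a3 together in N_WT and 66.9% ± 14.7 in OGD_WT (SD, n = 5). In KO the share went from 18.8% ± 3.36 to 66.9% ± 3.53. The highest OGD_WT share, 91.95%, and the lowest, 54.5%, enclose the KO values, and every OGD share exceeded every normoxic one of its genotype. Among the 3 monocarboxylate transporters, Slc16a7 went from 55.3% ± 6.05 to 21.5% ± 8.87 in WT and from 51.2% ± 10.2 to 20.7% ± 3.24 in KO. Slc16a1 went from 44.3% to 69.5% and from 47.8% to 70.1%. Slc16a3 went from 0.453% to 9.04% and from 1.07% to 9.18%.

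The second question was whether loss of ciRS-7 moved the transporters. In normoxia 0 of 7 members were called, where 0.0353% of 14152 genes were called (limma), and 0 of 7 had an unadjusted p under 0.05, beside 256 of 14152 genes (1.81%). For Slc2a1 the difference was 0.42 log2 units (KO minus WT, 95% interval -0.08 to 0.91). It was 0.24 without N_KO culture 2 and 0.09 with batch 3.1 left out, whose KO libraries held the highest normoxic levels, 10.9 and 9.77 CPM. The differences of the other 6 lay between -0.14 (Slc16a7) and 0.09 (Slc16a1). The interval was narrow for Slc2a6 (-0.22 to 0.36) and wide for Slc2a3 (-0.71 to 0.68). Slc16a3, which has no row in that table, was compared on the scale of all 20 libraries: it was 0.85 log2 units higher in N_KO than in N_WT, at 0 to 10 reads per library, with an exact permutation p of 0.0476 (two-sided, unadjusted, smallest possible 0.00794).

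Under OGD 0 of 8 members were called between genotypes, where 0.0282% of 14185 genes were called and 0.345% had groups that did not overlap (0 of 8 members). 253 genes (1.78%) had an unadjusted p under 0.05, and among the members this was Slc2a6 alone. Slc2a6 was 0.83 log2 units higher in OGD_KO (95% interval 0.36 to 1.30, limma adjusted p 1.0), with OGD_KO at 3.30 to 8.01 CPM and OGD_WT at 1.90 to 4.03 CPM. Its ranges overlapped, since KO culture 2 lay below WT culture 5. Within batches the KO minus WT difference was 0.95 in batch 1 (1 against 1 library), 0.14 in batch 3.1 (2 KO against 1 WT) and 1.69 in batch 3.3 (1 KO against 2 WT). For Slc2a1 the difference was -0.06 (95% interval -0.54 to 0.41), for Slc16a7 -0.08 (95% interval -0.43 to 0.27) and for Slc16a3 -0.02 (95% interval -0.41 to 0.36). Slc2a3 could not be pinned down, with an interval of -1.10 to 1.32.

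Whether OGD acted differently in the genotypes was tested with an interaction term (limma, 13688 genes, culture as a block through duplicateCorrelation). 0% of genes were called, hence 0 of 7 members, and 99 genes (0.723%) had an unadjusted p under 0.05, among the members Slc2a6. A calibrated test gives a share of about 0.05 by chance, so this test was conservative. Both genotype comparisons above lay under that share too. The consensus correlation within cultures was -0.19. For Slc2a6 the change under OGD was 0.79 log2 units higher in KO than in WT (95% interval 0.17 to 1.41, limma adjusted p 1.0). It was lower in 5 of 5 WT cultures (-0.47 to -1.31) and in 3 of 5 KO cultures, but the difference failed the correction over all genes. For Slc2a1 the difference of changes was -0.49 (95% interval -1.26 to 0.27), and it was -0.23 without WT culture 2, -0.82 without WT culture 5 and -0.21 without KO culture 2. It was -0.79 in batches 3.1, 3.2 and 3.3 only and -0.31 with batch 3.1 left out. For Slc16a7 it was 0.05 (95% interval -0.46 to 0.57). For Slc16a3, in a fit over the 14097 genes of both OGD tables that was added after seeing the data, it was -0.87 (95% interval -1.74 to -0.0050, limma adjusted p 1.0), and it rests on the few normoxic reads. The changes in WT and KO could not be told apart by this test, and the intervals leave room for differences of these sizes.

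Related genes from fixed lists gave the setting. Of 7 other GLUT genes only Slc2a4, the insulin-responsive transporter, was listed. It was at 1.12 to 1.61 CPM in N_WT and was called higher under OGD in KO (log2 fold change 0.52) with 0.39 in WT (limma adjusted p 0.0692). Of 11 other SLC16 genes 6 were listed, with 0 called higher in either genotype. 2 were called lower in WT and 3 in KO: Slc16a13 (-1.07 and -0.89) and Slc16a14 (-0.66 and -0.63) in both, and Slc16a9 in KO (-0.46, and -0.39 in WT with a limma adjusted p of 0.0712). With the replicate block the KO calls of Slc2a4 (limma adjusted p 0.0610), Slc16a14 (0.0700) and Slc16a9 (0.102) were lost. Of 9 further sugar and monocarboxylate carriers 5 were listed. The proton-coupled sugar transporter Slc45a1 was called lower in both (-0.68 and -0.67), while Mpc1 and Mpc2, the subunits of the mitochondrial pyruvate carrier, had -0.21 and -0.17 in WT and were not called.

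All 11 partners and regulators of these transporters were listed, with 3 called higher and 3 lower in WT and 2 higher and 3 lower in KO. Bsg, the chaperone that brings MCT1 and MCT4 to the cell surface, rose by 0.66 log2 units in WT and 0.49 in KO, where the call was lost with the replicate block (limma adjusted p 0.0912). Emb, the preferred chaperone of MCT2, had -0.60 and -0.58, called without the block but in neither genotype with it (limma adjusted p 0.0544 in WT and 0.0536 in KO). Txnip, an arrestin-domain protein that promotes removal of GLUT1 from the surface and is itself induced by glucose, fell by 1.59 and 1.51, and its relative Arrdc4 fell by 1.38 and 1.03. Tbc1d1, a Rab GTPase-activating protein in glucose transporter traffic, rose by 1.08 and 0.88. Hif1a, the oxygen-regulated subunit of HIF-1, rose by 0.36 in WT and had 0.35 in KO (limma adjusted p 0.0714). The other 5 (Mlxip, Mlx, Gipc1, Tbc1d4 and Epas1) were called in neither genotype. None of the genes of these lists was called between genotypes in normoxia or under OGD.

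5 of 6 hypoxia-responsive genes were listed in the OGD tables and all 5 were called higher in both genotypes. Vegfa, the vascular growth factor, rose by 3.29 log2 units in WT and 2.98 in KO. Egln3, an oxygen-sensing prolyl hydroxylase, rose by 2.68 and 2.03. The estimate for Slc2a1 was larger than that of each of these 5 genes in both genotypes. These differences between genes were not tested.

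The genes whose profile over the 20 libraries was nearest to each transporter were found by the root mean square difference of centred log2 CPM, over 12615 genes. For Slc2a1 they were Hk2, a hexokinase, at 0.30 log2 units, Ccn1 at 0.38 and Vegfa at 0.46, where a flat profile would be 1.94 away. For Slc2a3 they were Higd1a at 0.37, Pgm1 at 0.55 and Pcid2 at 0.58 (flat 0.98). Higd1a is a hypoxia-inducible mitochondrial protein, and Pgm1 a phosphoglucomutase of glycogen metabolism. For Slc2a13 they were Vsnl1, a neuronal calcium sensor, at 0.14, N4bp3 at 0.18 and Gm10516 at 0.21 (flat 0.56). For Slc16a7 they were Zfp641 at 0.18, Gabrb2, a GABA-A receptor subunit, at 0.20 and Rwdd2a at 0.20 (flat 0.80). The profiles of Slc2a6 (nearest Pcyox1l at 0.26, flat 0.51), Slc2a8 (nearest Parp8 at 0.16, flat 0.28) and Slc16a1 (nearest Hdac5 at 0.21, flat 0.40) were less distinct from a flat one. The libraries share condition, batch and depth, so these distances describe likeness only. Slc16a3 was too low for this measure.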

How the data were processed

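Total RNA was made into 20 strand-specific libraries, per the labels' protocols. The authors deposited 4 tables of log2 CPM, each with 10 libraries. The build was mm10, per the submitters' processing notes; aligner, counter, annotation, scaling and strand setting are not given in the sources used here. The deposited log2 CPM had the lowest and highest value of each gene and group drawn inwards, as a clipping at the 10th and 90th percentile does, which was inferred from the values. As deposited, 45.3% to 92.8% of a library's values came out as whole reads (within 0.05 reads, up to 500 reads), and with the clipping undone at least 99.91% did. Whether the recovered whole numbers are the original reads or were adjusted before deposit is not stated.

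Each comparison was fitted within its own table on the undone log2 CPM (limma 3.58.1, R 4.3.3, intensity trend, Benjamini-Hochberg over all genes, adjusted p under 0.05, two-sided). The values as deposited served as an alternative, and the code was tested on simulated data. Levels and the interaction used recovered reads scaled by median of ratios, with a prior count of 2 for log values. Lengths and coordinates are from GENCODE M21 (GRCm38, the build of mm10). Same-numbered N and OGD libraries share genotype number and batch label, which pairs them by the labels, but their deviations from the group means had correlations of -0.72 to 0.033 in WT and -0.79 to -0.060 in KO. The lowest were those of WT culture 3 and KO culture 3, each the sole culture of its batch, and a possible adjustment for batch before deposit was not tested.

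Named genes were the 8 members, genes of fixed lists that passed the test (up to 4 a list, others only to complete a count) and the 3 nearest profiles per member with a mean of at least 1 log2 CPM. Members and lists were chosen with earlier results of these data known. Alternatives were another scale, prior count, filter, variance trend, batch, block and each replicate left out. The recovered counts cover only genes in the tables, and their number limits the precision of low genes.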

Additional observations from a re-analysis of the deposited data

Results flagged for a closer look

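Of 32 groups of 5 libraries (8 members in 4 groups), 2 held a library that stood far from the other 4 by Dixon's criterion, where chance gives about 1.6. Slc2a3 in OGD_WT culture 5 was at 3.11 log2 CPM, and the other 4 libraries lay between 6.59 and 7.63. Slc2a6 in N_WT culture 2 was at 2.50 log2 CPM, and the other 4 lay between 2.65 and 2.70, a gap that is small in size.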

How the results depend on the processing

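The calls of Slc2a1, Slc16a3, Slc16a7 and Slc2a13 under OGD in both genotypes, and of Slc2a6 in WT, held in every alternative that included the gene; the filter at a mean of 1 log2 CPM removed Slc16a3. Slc16a1 in WT also missed the threshold with a prior count of 0.5 (limma adjusted p 0.0534) and without the intensity trend (0.0637). Members called ranged from 5 to 7 in WT and from 3 to 5 in KO, while all genes called ranged from 4313 to 8280 and from 2341 to 8024. With the replicate block 5681 genes were called in WT and 4829 in KO, with 5 and 4 members, and 0 between genotypes. Besides Slc16a1 in WT, the block changed no member's call. Of the listed genes called under OGD it also ended the calls of Emb in both genotypes, of Kdr in WT (limma adjusted p 0.0640) and of Bsg, Slc2a4, Slc16a9, Slc16a14, Snap25 (0.0590) and Olig2 (0.0838) in KO. The interaction had 0 genes called in every alternative, with or without the block. Depth limits Slc16a3, Slc2a8 and Slc2a6 most.

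Genes called in OGD_KO vs N_KO were 2341 with batches 3.1, 3.2 and 3.3 only. Genes called in N_KO vs N_WT were 9 as deposited, 3 with a mean of at least 1 log2 CPM, 2 with batches 3.1 to 3.3 only, 3 with the replicate block and 3 to 5 with 1 library left out (3 without N_KO culture 2). Genes called in OGD_KO vs OGD_WT were 12 as deposited, 1 with a prior count of 0.5, 2 with batch as a covariate, 2 with the replicate block and 1 to 7 with 1 library left out (1 without OGD_KO culture 1 or 2, 7 without OGD_KO culture 5, 2 without OGD_KO culture 3 or OGD_WT culture 1, 3 or 4). Between genotypes the replicate block joins WT and KO cultures by number alone, and only those numbered 1 share a batch label. The batch covariate took labels 3.1, 3.2 and 3.3 as 1 batch, so it did not adjust for batch 3.1 against 3.2 and 3.3. The causes of these shifts in count were not tested.

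Slc2a3 in WT was negative without culture 2 or 4 (uncalled) and positive and called without culture 5. The other differences that changed sign passed the threshold on neither side. With batches 3.1 to 3.3 only, log2 differences were 0.021 for Slc2a6 in OGD_KO vs N_KO, 0.015 for Slc2a3 and -0.026 for Slc2a6 in N_KO vs N_WT, -0.051 for Slc2a13 and 0.072 for Slc16a3 in OGD_KO vs OGD_WT, and -0.087 for Slc2a8 and -0.029 for Slc16a7 in the interaction. As deposited, Slc2a3 had 0.081 in N_KO vs N_WT and -0.15 in OGD_KO vs OGD_WT. With batch as a covariate, Slc2a3 had 0.047 in N_KO vs N_WT and Slc2a8 0.0044 in OGD_KO vs OGD_WT. With batch 3.1 left out, Slc2a8 had 0.056 and Slc2a13 0.11 in N_KO vs N_WT, Slc2a3 -0.69, Slc2a8 0.24 and Slc2a13 -0.24 in OGD_KO vs OGD_WT, and Slc2a3 -0.44 and Slc2a13 -0.36 in the interaction.

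With 1 replicate left out, OGD_WT vs N_WT ranged from -0.24 to 1.32 for Slc2a3 and from -0.0010 to 0.20 for Slc2a8. N_KO vs N_WT ranged from -0.063 to 0.19 for Slc16a1, -0.13 to 0.085 for Slc2a13 and -0.24 to 0.32 for Slc2a3. OGD_KO vs OGD_WT ranged from -0.25 to 0.12 for Slc16a1, -0.14 to 0.049 for Slc16a3, -0.15 to 0.031 for Slc16a7, -0.16 to 0.26 for Slc2a13, -0.29 to 0.092 for Slc2a1, -0.68 to 0.45 for Slc2a3 and -0.14 to 0.11 for Slc2a8. The interaction ranged from -0.45 to 0.0070 for Slc16a1, -0.12 to 0.21 for Slc16a7, -0.25 to 0.38 for Slc2a13, -0.93 to 0.65 for Slc2a3 and -0.018 to 0.20 for Slc2a8.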
